A study of Mus musculus with 12 samples.

Results

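Total CD8+ T cells labelled AID KO were set against total CD8+ T cells of WT mice. The comparison comprised 6 of the 12 one-colour arrays of the series. The 2 arrays labelled AID KO held cells of peripheral lymph nodes (PLN) and of mesenteric (gut-draining) lymph nodes (MLN), 1 array each, and the 4 WT arrays held 2 PLN and 2 MLN samples. They were chosen by title, with no use of measured values. Per the labels all mice were female C57BL/6, and the cells were enriched with magnetic beads, by flow sorting, or both. The submitters state that there are no replicates, and no label says that 2 arrays of a group came from separate animals. P-values therefore rest only on how far the 12 arrays depart from a sum of site, slide, genotype and cell fraction terms. Such departures may be technical and cannot be read as spread between animals. Age, the allele and the number of mice pooled are not given in the sources used here. The other arrays held total cells of uMT mice, which lack mature B cells (2) and naive CD44-low PLN cells (4, on a slide of their own, Sca1p and Sca1m fractions labelled AID KO or uMT).

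Several groups of genes described here are early-response genes, which cells transcribe within minutes of a stimulus: AP-1 subunits and NR4A receptors switch on further genes, whereas MAP kinase phosphatases and the A20 protein (Tnfaip3) damp the signals that induced them.

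Each array was read beside the WT array of the same site and slide. On slide 1 that pair was AID KO PLN and WT PLN replicate 1, and on slide 2 it was AID KO MLN and WT MLN replicate 2. Levels are log2 processed intensity relative to the 75th percentile of the array, so 0 marks that percentile. Among the 6 arrays, Pearson correlations across features lay between 0.985 and 0.992 for arrays of 1 slide and between 0.978 and 0.987 for arrays of different slides. Over all 12 arrays, 50.1% to 56.8% of spots were well above background, and the number of arrays limits the precision. All 8 defining CD8 T cell markers (Cd8a, Cd8b1, Cd3e, Cd3d, Cd3g, Cd247, Lck and Thy1) were well above background on all 6 arrays. Of the 8 defining B cell markers, 3 were so on all 6 arrays (Cd79b, Cd22 and Cr2), while Fcer2a was on none. Also so on all 6 were 2 of 3 CD4 T cell, 3 of 4 NK cell and 2 of 4 dendritic cell markers, but 0 of 4 plasma cell markers. The dendritic marker Siglech (5.79 to 7.26) and the neutrophil marker Csf3r (7.03 to 7.59) lay within the range of the CD8 T cell markers. A second probe of Siglech was well above background on no array, as was a second probe of the dendritic marker Itgax. Further probes of Cr2 were so on 0 and 3 of the 12 arrays. The probes of these genes thus disagreed. In bulk samples, fewer cells of a type and less RNA per cell cannot be told apart.

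**Figure D1:**
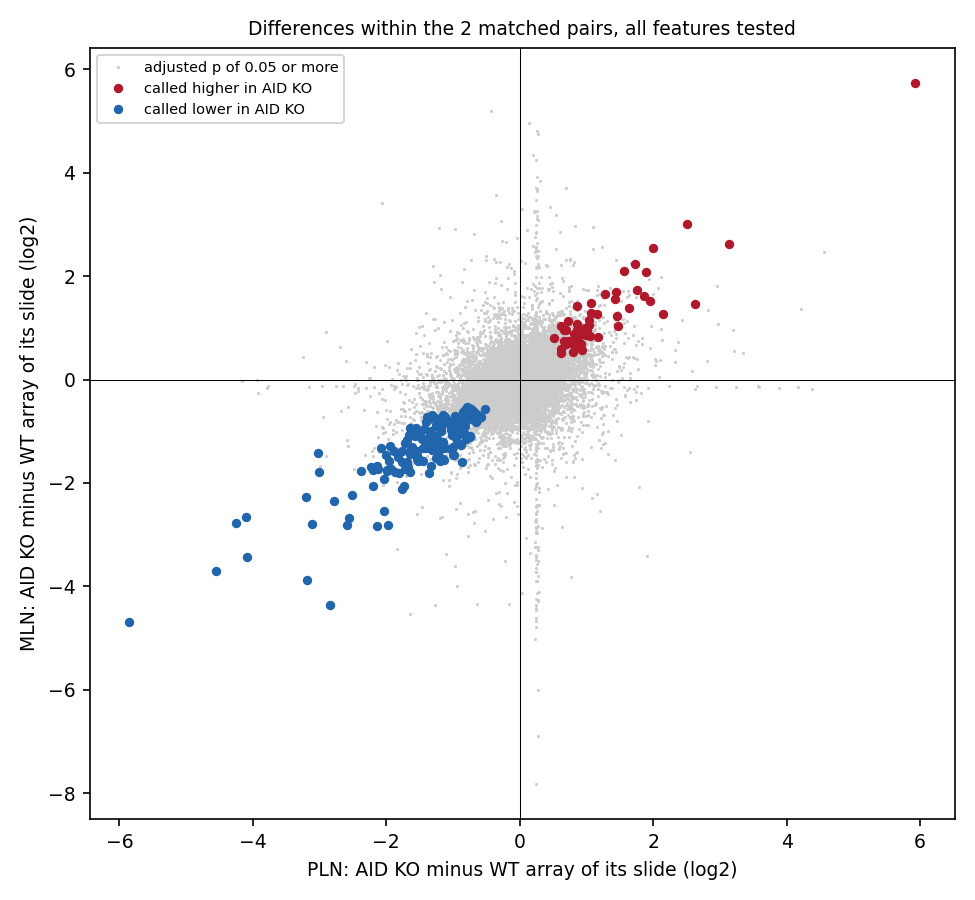
Log2 difference between each array labelled AID KO and the WT array of its slide, PLN across and MLN up, for the features tested. Features called higher lie in the upper right and features called lower in the lower left, with 1 sign in both pairs. The calls were made on these same arrays.

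The question of the comparison is which transcripts differ between CD8+ T cells labelled AID KO and WT. Of 25788 features, 59 were higher (0.229%) and 170 lower (0.659%) in the arrays labelled AID KO, by limma's test at an adjusted p under 0.05. Together these were 0.888% of the features, and 134 were named genes among 13908 tested (0.963%). This count rests on a fit over all 12 arrays, chosen with the count already known. A fit over the 6 arrays with site as the only term called 2 higher, among them Pianp, and 6 lower, which were Klk1b22, Klk1b24, Klk1b4 and 3 probes without a name. With the 2 matched pairs as blocks, 6 were higher and 7 lower. Without the AID KO PLN array 1 feature was called higher and 0 lower (1801 features had an unadjusted p under 0.05), and without the AID KO MLN array 1 was higher and 1 lower. Leaving out either array labelled AID KO leaves 1 array in that group, so a lost call there cannot show where the call rests. A set of 68 called genes, among them each called gene named here, was followed under each alternative. Without 1 WT array, 12 to 16 of these 68 kept their call. The differences in the 2 pairs, which share no array, correlated across 25782 features with a Pearson r of 0.33. Of the 229 features, 227 had groups that did not overlap, beside 9.13% of all features higher and 8.36% lower without overlap. The calls were made on the same arrays, so this lack of overlap largely follows from them and is no separate evidence.

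At least 2-fold differences within a slide were seen in 1.34% (higher) and 2.40% (lower) of features for AID KO against WT in PLN, and in 1.85% and 2.38% in MLN. Between the 2 WT arrays of a site, which stand on different slides, replicate 2 was at least 2-fold higher than replicate 1 in 7.02% of features in PLN and 8.45% in MLN, and at least 2-fold lower in 0.586% and 1.38%. Slide and sample cannot be told apart in these WT differences, and the fit held a term for slide.

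Of 57 tested early-response genes of 5 lists, 17 fell in the arrays labelled AID KO and 0 rose, beside 0.659% of all features lower, while 40 did not pass. The median difference was -0.39 over these 57, against 0.01 over all features, and 49 lay below 0. The pairs gave -0.45 in PLN and -0.43 in MLN, while WT replicate 2 minus 1 gave 0.00 in PLN and -0.02 in MLN. In naive cells the median AID KO minus uMT difference of the same genes was 0.02, with 0 called. The median was -0.40 without AID KO PLN and -0.44 without AID KO MLN, fits that leave 1 array in that group. With the 6 arrays and site alone 0 were called, with a median of -0.39. Without 1 WT array, 4 or 5 of the 57 were called (7.02% to 8.77%), beside 31 to 40 of all 25788 features.

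AP-1 and ATF factors, which bind DNA as dimers, gave 6 of 11 lower with a median of -1.23. Fos stood at 3.77 in AID KO PLN and 4.69 in AID KO MLN, against 5.39 and 5.33 in WT PLN and 5.80 and 5.99 in WT MLN. It fell by 1.40 ± 0.11 (SE of the fit; limma adjusted p = 0.0109), and both AID KO values lay below all WT values. Jun, its usual partner, had 3.58 and 4.69 in the PLN and MLN arrays labelled AID KO, against 4.83 and 5.06 in WT PLN and 5.36 and 5.60 in WT MLN. Its fall was 1.07 ± 0.10 (limma adjusted p = 0.0183), with both AID KO values below all WT values. Junb was 6.54 and 6.84 in AID KO, against 7.87 and 8.10 in WT PLN and 7.67 and 8.06 in WT MLN (fell by 1.23 ± 0.15). Fosl2, the Fra-2 subunit, reached 1.04 and 0.62 in AID KO, against 2.37 and 2.30 in WT PLN and 2.10 and 1.90 in WT MLN (fell by 1.34 ± 0.09). The small Maf factor Maff, which pairs with other basic leucine zipper proteins, gave -1.52 and -1.61 in AID KO, against 0.45 and 0.28 in WT PLN and 1.17 and 1.20 in WT MLN (fell by 2.34 ± 0.23). All AID KO values of these 3 genes lay below the WT values. Atf3, a stress-induced repressor, was not well above background on either array labelled AID KO and was at least 2.72-fold lower there (means of -6.75 in AID KO and -3.04 in WT, limma adjusted p = 0.0456). Fosb (-1.50), Mafk (-0.71) and Jund (-0.35) did not pass, with adjusted p of 0.11, 0.067 and 0.11.

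**Figure D2:**
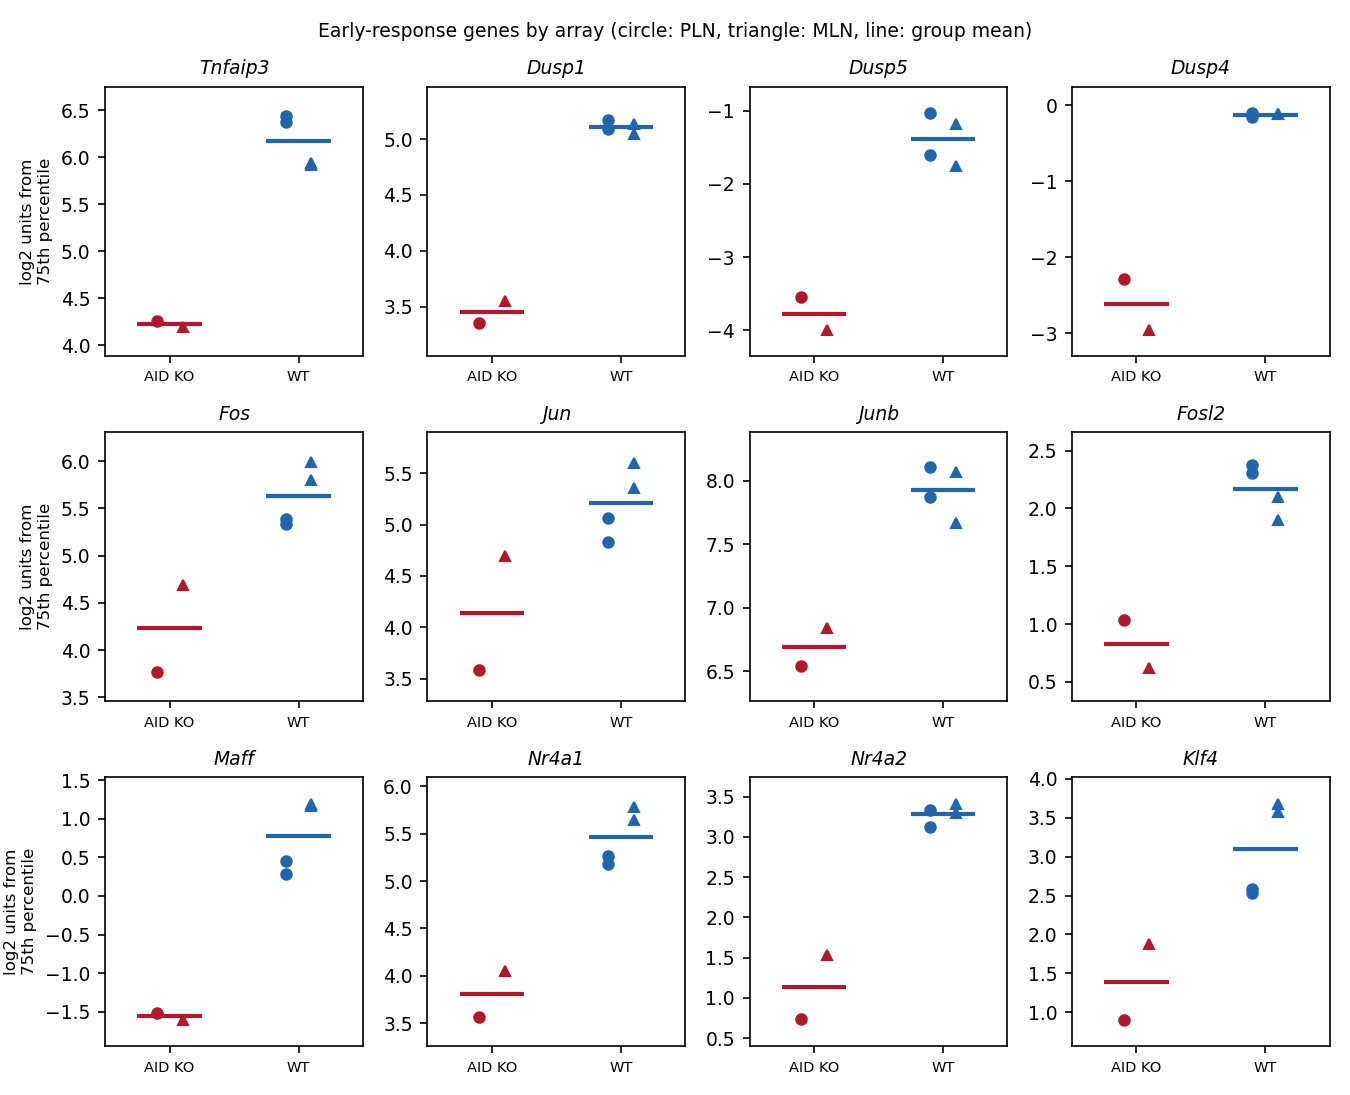
Level of 12 early-response genes on each array, in log2 units from the array's 75th percentile, for AID KO (left) and WT (right) total CD8+ T cells. Circles are PLN, triangles MLN and lines group means; the 2 AID KO points lie below all 4 WT points for each gene.

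Among MAP kinase phosphatases, feedback inhibitors of the kinases that induce them, 3 of 9 fell. Dusp5, a nuclear phosphatase that acts on ERK, had -3.54 and -4.00 in the PLN and MLN arrays labelled AID KO, against -1.02 and -1.60 in WT PLN and -1.18 and -1.76 in WT MLN. Its difference was -2.38 ± 0.11 (limma adjusted p = 0.00446). Dusp1, which acts on p38 and JNK, had 3.35 and 3.55 in AID KO, against 5.17 and 5.09 in WT PLN and 5.13 and 5.05 in WT MLN. Dusp4 had -2.29 and -2.95 in AID KO, against -0.15 and -0.10 in WT PLN and -0.12 and -0.12 in WT MLN. These 2 genes fell by 1.66 ± 0.10 and 2.50 ± 0.21. For both genes the 4 WT values lay close together and both AID KO values lay below them. Dusp2 (-0.39), Dusp10 (-0.71), Dusp6 (-0.40), Dusp7 (0.31), Dusp16 (-0.20) and Dusp14 (-0.46) did not pass.

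NF-kB feedback and RNA decay regulators gave 4 of 23 lower. Tnfaip3, which encodes A20, an inhibitor of NF-kB signalling, stood at 4.25 in AID KO PLN and 4.20 in AID KO MLN, against 6.37 and 6.44 in WT PLN and 5.94 and 5.92 in WT MLN. It fell by 1.94 ± 0.11 (limma adjusted p = 0.00456). Rgs2, a regulator of G protein signalling, had 3.56 and 3.95 in AID KO, against 5.22 and 5.45 in WT PLN and 4.73 and 5.02 in WT MLN. Ppp1r15a, which restores translation after stress, had 4.89 and 5.69 in AID KO, against 6.33 and 6.68 in WT PLN and 6.42 and 6.64 in WT MLN. Gadd45b had 0.37 and 1.13 in AID KO, against 1.37 and 1.36 in WT PLN and 2.55 and 2.59 in WT MLN. Tnfaip3, Rgs2, Ppp1r15a and Gadd45b had both AID KO values below all WT values. Rgs1 (-1.76), Nfkbiz (-0.84) and Zc3h12a (-0.99) did not pass, with adjusted p of 0.064, 0.067 and 0.13.

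Of 7 NR4A and EGR factors 2 fell. Nr4a1 had 3.57 and 4.05 in AID KO, against 5.26 and 5.18 in WT PLN and 5.78 and 5.64 in WT MLN, and Nr4a2 had 0.73 and 1.53, against 3.12 and 3.33 in WT PLN and 3.40 and 3.30 in WT MLN. Both are nuclear receptors induced by antigen receptor signals, and their differences were -1.66 ± 0.16 and -2.16 ± 0.20 (limma adjusted p = 0.0195 and 0.0177). Egr1 (-0.05), Egr2 (0.18), Egr3 (0.06) and Nr4a3 (-0.17) did not pass. A second, dimmer probe of Nr4a3, well above background on 7 of 12 arrays, gave -2.99 and was not tested, so the probes of this gene disagreed in size. Of 7 KLF factors 2 fell, Klf4 by 1.70 ± 0.16 and Klf9 by 1.34 ± 0.15, while Klf6 (-0.80, adjusted p = 0.0746) and Klf2 (-0.24), which maintains T cell quiescence, did not pass. Heat shock chaperones, which assist protein folding, gave 0 of 13 called, with a median of -0.19. In uMT minus WT, which shares the WT arrays, the 17 genes lower in AID KO had differences of -1.65 (Dusp4) to 0.66 (Dusp1) with a median of -0.21. Of these 10 lay below 0, among them Atf3 (-1.59), Maff (-1.18) and Nr4a1 (-0.74), and 0 of 17 passed.

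Promoters of genes called lower are shown for the cAMP response element TGACGTCA, searched on both strands in 250 bases before to 50 after each start (RefSeq, GRCm38.p6). The motif, and the AP-1 site TGACTCA, were chosen after the values were seen, and the 2 motifs share no full match. Promoters were found for 83 genes called lower. TGACGTCA was in 7.48% of their 107 promoters, beside 2.93% of promoters of all named genes tested and 1.79% of all promoters. TGACTCA was in 4.67%, beside 3.90% and 5.20%. For all tested members of the 5 early-response lists, called or not, TGACGTCA was in 8.62% of 58 promoters. For their members called lower it was in 15.8% of 19 promoters. A link of the motif to being called lower was not tested. The 8 genes called lower with TGACGTCA were Dusp1, Slc25a25, Trp53inp2, Maff, Ppp1r15a, Errfi1, Tubb2a and Zfand2a. The promoters of the 3 that are early-response list members follow, 5′ to 3′, with the motif in capitals.
Dusp1, chr17:26508423-26508722, minus strand: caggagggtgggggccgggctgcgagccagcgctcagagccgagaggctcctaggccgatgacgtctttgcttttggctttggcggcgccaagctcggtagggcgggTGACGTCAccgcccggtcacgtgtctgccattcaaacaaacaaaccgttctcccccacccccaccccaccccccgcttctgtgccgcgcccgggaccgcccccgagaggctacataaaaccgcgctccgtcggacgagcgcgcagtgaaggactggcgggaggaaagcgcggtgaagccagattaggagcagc
Maff, chr15:79347270-79347569, plus strand: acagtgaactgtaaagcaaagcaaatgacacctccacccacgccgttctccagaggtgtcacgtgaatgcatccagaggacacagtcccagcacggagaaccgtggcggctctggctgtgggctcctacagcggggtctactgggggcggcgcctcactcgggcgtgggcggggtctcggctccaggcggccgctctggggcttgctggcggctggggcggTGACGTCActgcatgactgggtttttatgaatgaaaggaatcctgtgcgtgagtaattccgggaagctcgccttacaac
Ppp1r15a, chr7:45526219-45526518, minus strand: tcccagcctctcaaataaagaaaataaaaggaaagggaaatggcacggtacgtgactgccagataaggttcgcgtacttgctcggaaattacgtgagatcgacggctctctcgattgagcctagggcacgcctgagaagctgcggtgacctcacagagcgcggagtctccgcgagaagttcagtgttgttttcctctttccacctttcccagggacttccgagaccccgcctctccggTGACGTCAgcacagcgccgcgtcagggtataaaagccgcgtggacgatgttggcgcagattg
A match describes the letters and not a bound site.

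**Figure D3:**
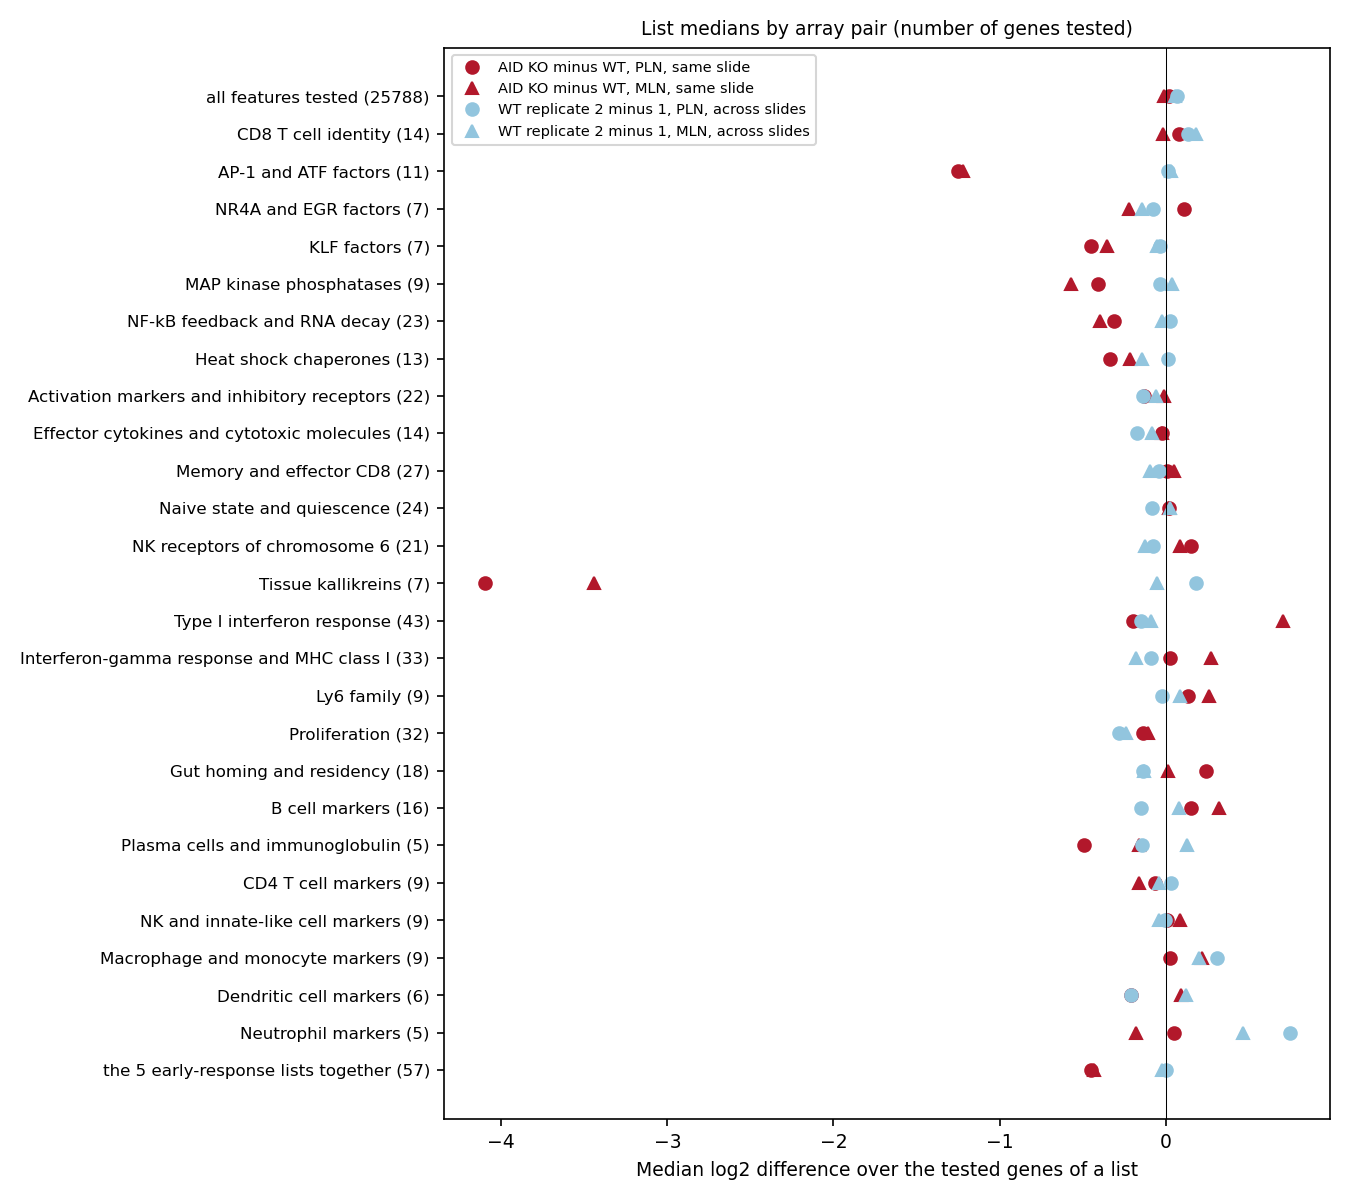
Median log2 difference over the tested genes of each list, for the 2 pairs of AID KO minus WT (PLN circle, MLN triangle, red) and for WT replicate 2 minus 1 (blue). The AP-1 list lies at -1.25 and -1.22 and the kallikreins at -4.10 and -3.44, while the type I interferon list lies at -0.19 in PLN and 0.71 in MLN.

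The distal part of chromosome 6 held a larger share of called genes than the rest. This breakdown by chromosome was made after values were seen, so it is given with no test. With the RefSeq gene order cut into 4 equal sections, in the last of them 15 of 201 tested genes were called (7.46%), 11 higher and 4 lower, beside 116 of 13221 on the other chromosomes (0.877%). The first 3 sections held 0 of 142, 1 of 133 and 1 of 208. In naive cells, AID KO minus uMT called 10 of these 201 genes (4.98%), beside 40 of 13221 on the other chromosomes (0.303%). In this section 8 genes were called in both comparisons, each with the same sign, against 1 gene on the other chromosomes. Without the NK receptor genes of the region the share was 12 of 180 (6.67%). Without 1 WT array, 0.995% to 1.49% of the 201 were called, beside 0.144% to 0.182% on the other chromosomes. Leaving out either array labelled AID KO leaves 1 in that group, so such fits cannot decide the share.

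Pianp, a ligand of an inhibitory receptor, was at 1.93 in AID KO PLN and 1.96 in AID KO MLN, against -4.00 and -4.75 in WT PLN and -4.03 and -3.78 in WT MLN. The difference was 6.09 ± 0.25 (limma adjusted p = 0.00404), and in naive cells, where the probe was well above background on both AID KO arrays and neither uMT array, it was at least 63.0-fold higher (means of 1.80 in AID KO and -4.38 in uMT). A second probe gave a smaller difference of 1.55. Ppfibp1, a liprin, had -0.74 and -1.15 in AID KO, against -3.24 and -3.47 in WT PLN and -3.68 and -4.15 in WT MLN. It was higher by 2.69 ± 0.14 (limma adjusted p = 0.00446) and by 2.83 ± 0.17 in naive cells, while its second probe was well above background on no array. Klrk1, the activating NK receptor NKG2D, had 0.48 and 0.61 in AID KO, against -1.25 and -1.62 in WT PLN and -1.69 and -1.64 in WT MLN, a difference of 2.09 ± 0.25. In naive cells Klrk1 was well above background on both AID KO arrays and neither uMT array, and at least 8.49-fold higher (means of -1.09 in AID KO and -5.94 in uMT).

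Among the other genes of this section, Klrc3 (2.24), BC064078 (1.78), Klhl42 (0.97), Fam234b (0.93), Smim10l1 (0.93), Cd27 (0.88), Magohb (0.85) and Crebl2 (0.66) were higher in total cells. Smim10l1 had a second probe with a difference of -0.58, so its probes disagreed in sign. Cd27, a costimulatory receptor, stood at 3.57 and 3.32 in AID KO, against 2.73 and 2.41 in WT PLN and 2.70 and 2.42 in WT MLN. The actin regulator Mical3 (-1.32), BC049715 (-1.22), Cd69 (-0.92) and Fgfr1op2 (-0.90) were lower. Cd69, an early activation marker that holds T cells in tissue, was at 2.91 and 2.60 in AID KO, against 3.89 and 3.47 in WT PLN and 3.83 and 3.54 in WT MLN, and in naive cells it differed by 0.45, which did not pass. Near-identical NK receptor genes may share signal, as the probe of Klrc3 may. Of 21 tested genes of the region's NK receptor list, Klrk1 and Klrc3 were higher and 1 was lower, Cd69, which is not an NK receptor. Klra4 (-1.30) and Klra7 (-1.25) did not pass, with adjusted p of 0.0517 and 0.0726.

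**Figure D4:**
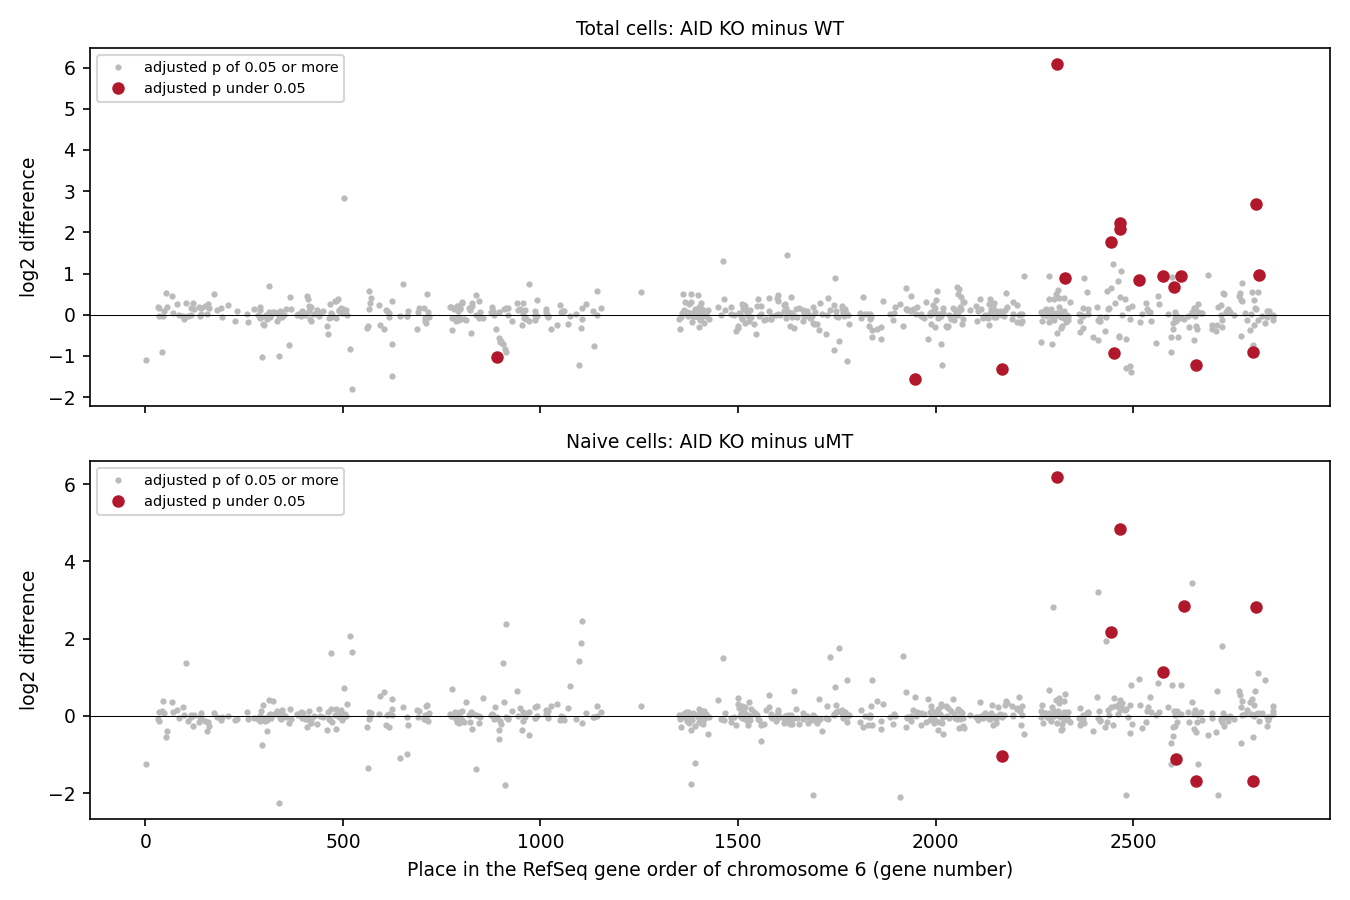
Log2 difference of each tested gene of chromosome 6 against its place in the RefSeq gene order, for AID KO minus WT in total cells (top) and AID KO minus uMT in naive cells (bottom). Red points passed an adjusted p under 0.05; 15 of the 17 in the top panel lie in the last section.

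Tissue kallikreins, secreted serine proteases of the Klk1b cluster, were much lower in the arrays labelled AID KO. Of 14 listed genes 7 were tested, and 6 of these were called lower, beside 0.659% of all features. Klk1b22 stood at -4.70 in AID KO PLN and -3.60 in AID KO MLN, against 1.16 and 1.00 in WT PLN and 1.50 and 1.08 in WT MLN (fell by 5.33 ± 0.26, limma adjusted p = 0.00666). Klk1b24 had -5.55 and -4.57 in AID KO, against -1.47 and -1.28 in WT PLN and -1.14 and -1.13 in WT MLN (fell by 3.80 ± 0.19). Klk1b27 and Klk1b4 were not well above background on either array labelled AID KO, and were at least 6.83-fold and 2.49-fold lower there on the processed signal. With normexp background correction, which compresses dim signals, their differences were -1.49 and -0.74. Klk1b3 fell by 3.59 ± 0.32 and Klk1b8 by 3.52 ± 0.44, and Klk1b21 (-0.50) did not pass. Klk1b22, Klk1b24, Klk1b3 and Klk1b8 were well above background on 1 of the 2 arrays labelled AID KO, so the sizes of their falls rest partly on dim signal. The median was -3.64, or -3.52 with the 2 dim genes at their bounds, and -1.66 with normexp (6 of 7 lower). The series matrix held 1 of the listed genes, at -0.44 and not called, and did not hold the 6 called lower, so it cannot assess them. These genes are close copies, so their probes may share signal and the count is not one of independent genes. In uMT the 2 arrays had 2.92 (PLN) and 2.99 (MLN) for Klk1b22, above the 4 WT arrays. Leaving out either array labelled AID KO, which leaves 1 in that group, gave medians of -3.48 and -4.24. Without 1 WT array, 3 to 5 of the 7 were called, beside 31 to 40 of all 25788 features.

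**Figure D5:**
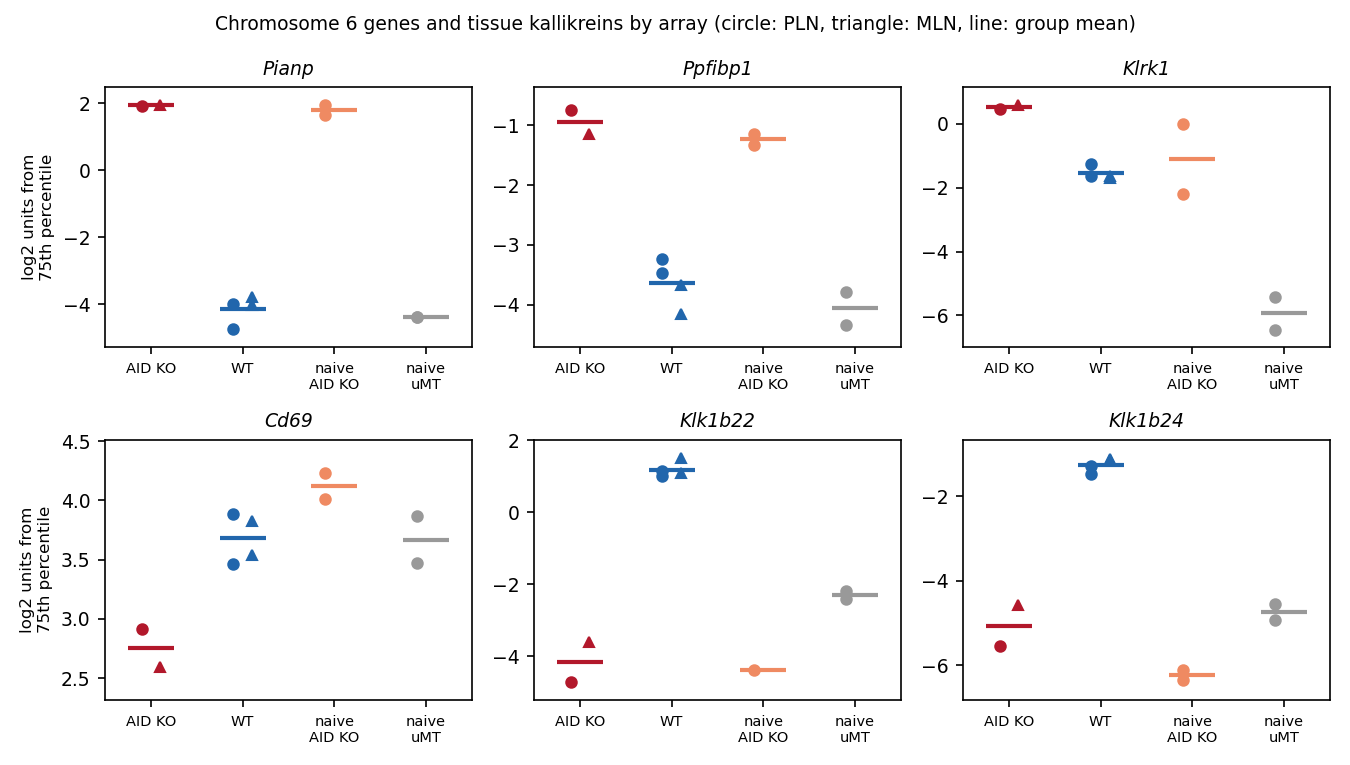
Level of 6 genes, in log2 units from each array's 75th percentile, for total AID KO and WT cells and for naive AID KO and uMT cells (naive points are the Sca1p and Sca1m fractions). Pianp and Ppfibp1 are high in total and naive arrays labelled AID KO, and Cd69, Klk1b22 and Klk1b24 are low in total AID KO against WT.

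Of 14 effector cytokine and cytotoxic genes 1 fell, and of 22 activation markers and inhibitory receptors 1 rose and 2 fell, beside 0.888% of all features called. Ifng, the cytokine interferon-gamma, had 0.25 and 0.79 in AID KO, against 1.97 and 1.64 in WT PLN and 2.30 and 2.03 in WT MLN, and fell by 1.47 ± 0.16 (limma adjusted p = 0.0245). Tigit, an inhibitory receptor, was not well above background on either array labelled AID KO and was at least 1.86-fold lower (means of -6.04 in AID KO and -3.59 in WT). Bhlhe40, a factor of effector T cells, fell by 1.56 ± 0.11. Called higher on other chromosomes were the small heat shock protein Cryab (1.42 ± 0.20), Art1 (1.28 ± 0.18), Gpat2 (1.07 ± 0.15), Mtus2 (1.07 ± 0.10), the GABA receptor subunit Gabrd (0.96 ± 0.09) and the integrin Itga7 (0.85 ± 0.11), each with both AID KO values above all WT values. Mtus2 was also higher in uMT minus WT, by 1.56 (limma adjusted p = 0.0215), so its rise was not particular to AID KO. Gabrd (0.31) did not pass there. Genes of CD8 T cell identity gave 0 of 14 called, with a median of 0.05. Ly6a, which encodes Sca-1, had 2.95 and 3.22 in AID KO, against 2.45 and 2.15 in WT PLN and 2.33 and 1.97 in WT MLN, and its difference of 0.86 ± 0.27 did not pass (limma adjusted p = 0.233).

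Of 43 tested type I interferon response genes, 0 passed. The median difference was -0.19 in the PLN pair, with 9 of 43 genes higher in AID KO, and 0.71 in the MLN pair, with all 43 higher. The summed linear level of the list was 605 in AID KO PLN and 921 in AID KO MLN, against 648 and 654 in the WT PLN arrays and 514 and 535 in the WT MLN arrays. Ifi44 differed by 0.46 in PLN and 3.34 in MLN, with an adjusted p of 0.395 in the fit over both. A direct test of the MLN minus PLN difference called 0 features (2.44% had an unadjusted p under 0.05), and with 1 array of each site labelled AID KO, on different slides, site and slide cannot be told apart for these arrays.

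B cell markers gave 0 of 16 called, with 14 above 0 and a median of 0.31. Their summed linear level was 43.6 in AID KO PLN and 48.6 in AID KO MLN, against 40.3 and 40.9 in WT PLN and 43.6 and 43.9 in WT MLN. The part of B cell RNA in the differences above was not tested. Erythroid genes varied between WT arrays: Hba-a1 had -1.88 and 0.34 in AID KO, against -3.16 and -1.65 in WT PLN and 0.99 and 1.56 in WT MLN. In the lists of plasma (5 tested), CD4 T (9), NK (9), macrophage (9), dendritic (6), neutrophil (5) and stromal (3) markers 0 were called. With 0.888% of all features called, lists this small would rarely hold a call, so this decides nothing about these cells. Their medians ran from -0.36 (plasma) and -0.34 (neutrophil) to 0.15 (stromal).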

How the data were processed

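The series comprised 12 Agilent 1-colour expression arrays of mouse CD8+ T cells. Per the file headers and the submitters' processing notes, the deposited intensity of each spot was extracted by Agilent Feature Extraction 11.0.1.1, background-subtracted and not normalized between arrays. Other deposited columns are flags of 0 or 1 that mark spots well above background, saturated spots and outliers. A deposited value table (the series matrix) gives log2 values, used as an alternative; its column medians were 9.47, 8.59 and 8.99 by slide, so its scale differs between slides, and its centring is otherwise unknown.

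From the scanner files, log2 processed intensity was shifted by each array's 75th percentile (303 to 539 intensity units). Outlier spots (61 to 342 per array) were left out, and 0 spots were saturated. Probes well above background on at least 2 of 12 arrays were kept, and the brightest stood for each gene. Names came through unversioned accessions and RefSeq (GRCm38.p6): of 56605 probes, 32994 had 1 symbol, 0 several and 23611 none. Array coordinates belong to another build and were not used.

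Tests used limma 3.58.1 in R 4.3.3, two-sided, adjusted by Benjamini-Hochberg across every feature tested, with 0.05 as threshold. One fit over all 12 arrays modelled total cells by site, slide and genotype (AID KO, uMT) and naive cells by an intercept, Sca1p and genotype, leaving 4 residual degrees of freedom (3 with an AID KO by site term). The script was tested on simulated data. Bounds set a dim group at the lowest signal called well above background, or at the probe's own if higher. Slide and scan time coincide.

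Members, lists and the fit were chosen with earlier results of these data known. Named were Ly6a, the 10 largest rises and falls whose matched differences share that sign, up to 5 members of each list by lowest p, and the leading site differences. Others named were chosen after their values were seen. One item is not reported here.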

Additional observations from a re-analysis of the deposited data

How the results depend on the processing

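Counts of features called in AID KO versus WT moved with the processing, and none of 68 called genes followed by name was reversed. Against 59 higher and 170 lower, the counts were 149 higher with normexp, 260 and 320 in the series matrix, 8 and 42 with no filter on dim probes, and 157 and 289 with probes well above background on at least 3 of 6 arrays. They were 2 and 6 over 6 arrays with site, 14 and 50 over 6 arrays with site and slide, 39 and 117 over 8 total-cell arrays, 144 and 291 with slide as a random block (correlation 0.43), and 6 and 7 with the matched-pair block. Leaving out each array gave 1 to 8 higher and 0 to 32 lower, the lowest without an array labelled AID KO. Naive counts (54 higher, 49 lower) were 19 and 11 with normexp, 6 and 11 in the series matrix, 34 and 25 with no filter, and 17 and 22 with the stricter filter, and leaving out each naive array gave 84 to 100 higher and 50 to 100 lower. A fit without 1 naive array leaves 1 array of that genotype, so its naive difference is that of 1 Sca1p or Sca1m pair. No residual among naive arrays then remains, so such counts cannot decide whether the naive calls hold. The MLN minus PLN count was 0 under every alternative run, with 296 to 1730 features at an unadjusted p under 0.05. Why the counts moved was not tested. Fits on fewer arrays leave fewer residual degrees of freedom, yet the naive counts rose without a naive array.

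Of these 68 genes, 64 kept their call with quantile normalization, 59 with normexp, 59 with the mean of probes, 22 over 6 arrays with site and slide, 7 with the matched-pair block, 4 over 6 arrays with site, and 0 without either array labelled AID KO. Early-response genes called lower numbered 17, or 5 with no filter, 6 over 6 arrays with site and slide, and 1 with the matched-pair block. Normexp on the mean signal was not run because the files hold no such column; the median signal took its place, chosen after seeing the data. Replicate numbers do not pair the arrays, since AID KO has 1 array per site. Signal over background limits Klk1b27, Klk1b4, Atf3 and Tigit to bounds, and 1 array per site and genotype limits any statement on sites.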

Other observations

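Beyond the lists, several further regulators were lower in the arrays labelled AID KO. They were chosen after their values were seen and are given with no test of the choice. Sik1, a kinase that restrains CREB coactivators, stood at 1.01 in AID KO PLN and 0.90 in AID KO MLN, against 3.0 and 2.89 in WT PLN and 2.60 and 2.65 in WT MLN, and fell by 1.83 ± 0.10 (limma adjusted p = 0.00446). Nfil3, a basic leucine zipper repressor, had 0.16 and -0.29 in AID KO, against 1.90 and 1.94 in WT PLN and 1.76 and 1.77 in WT MLN. Irs2, an insulin receptor substrate, fell by 1.41 ± 0.08, the small GTPase Gem by 1.18 ± 0.08 and the period gene Per1 by 1.28 ± 0.12. The metallothioneins Mt1 and Mt2 fell by 1.13 and 0.57, and the circadian repressor Ciart by 0.76 (limma adjusted p = 0.035). For Ciart the groups overlapped, with AID KO MLN (-1.95) above WT PLN replicate 1 (-2.55), and a second, dimmer probe gave -0.42. The circadian clock genes Per2 (-0.41), Dbp (0.23), Cry1 (0.00), Nr1d1 (-0.26) and Arntl (-0.16) did not pass, whereas Nfil3 (-1.91) and Bhlhe40 (-1.56) were called lower. Crem, a cAMP-responsive factor, had a difference of -1.03 and an adjusted p of 0.0595.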
